A study of Homo sapiens with 10 samples.

Results

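E2F6 was knocked down in H1 cells, an established human embryonic stem cell line, and RNA from the knockdown was compared with RNA from cells that received a control hairpin. The comparison covers 4 of the 10 samples of the series: the 2 libraries of cells with a short hairpin RNA (shRNA) against E2F6 (shE2F6) and the 2 libraries of cells with an shRNA against luciferase (shLUC), an enzyme that human cells lack. Per the labels, all groups were wild-type H1 cells kept in mTeSR1 medium on Matrigel, took up packaged shRNA virus and were selected with puromycin, so virus and drug are shared by knockdown and control. The 2 libraries of cells with an shRNA against SMARCA4, a chromatin remodelling ATPase (shSMARCA4), and the 2 with an shRNA against MAFK, a small MAF transcription factor (shMAFK), helped to estimate the spread and formed a second comparison. The series also holds 2 libraries with an shRNA against KDM1A (shKDM1A), which were left out of the fit. Below, the other knockdowns are shSMARCA4 and shMAFK alone. The title of the series names modulators of chromatin structure driven by transposable elements (TEs), and the labels name 1 hairpin target per group without saying how many hairpins were used.

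E2F6 is an E2F family member that lacks the activation domain of the classical E2F factors and does not bind the retinoblastoma proteins. It sits with MGA, MAX, L3MBTL2 and PCGF6 in a variant Polycomb complex, PRC1.6, which is recruited to promoters through E2F motifs and E-boxes. The complex is known in embryonic stem cells for keeping meiotic and other germline genes silent, often together with DNA methylation.

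All rows of the deposited table were examined: 13808 genes, 973 TE subfamilies and 4 transfer RNA rows, 14785 in all. The values are normalized tag counts, and all 10 libraries held an identical value at 11875 of 14785 ranks (80.3%), so a value mainly tells a row's rank within its library and the read depth is unknown. Over all rows the SD between replicates on the log2 scale was 0.31 in shE2F6 and 0.27 in shLUC. The labelled cell type was checked with 18 pluripotency markers, all of which were in the table. POU5F1, the core pluripotency factor, stood at 30768 and 16615 in shE2F6 and at 35710 in both shLUC libraries, and SOX2 stood between 5367 and 6928. Of the differentiation markers, 4 of 14 for ectoderm, 4 of 15 for mesoderm, 2 of 13 for endoderm and 2 of 13 for trophoblast were in the table. KDR, a mesoderm marker, stood at 5235 and 5300 in shE2F6 against 5420 and 4612 in shLUC. Of 12 fibroblast markers 6 were in the table, with a summed level of 15310 and 15781 in shE2F6 and 14995 and 16278 in shLUC. THY1 had the highest level of the 6, at 9056 and 7440 in shE2F6 and 8852 and 9056 in shLUC. Whether the sum reflects fibroblasts was not tested.

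The E2F6 transcript (ENSG00000169016, chr2:11444375-11466177 on GRCh38, minus strand) was lower in both knockdown libraries than in any other library fitted. Its level was 336 and 304 in shE2F6 against 491 and 553 in shLUC. It was 536 and 539 in shMAFK and 603 and 450 in shSMARCA4. The knockdown mean of 320 ± 22.6 (SD, n = 2) was 61.3% of the control mean of 522 ± 43.8 (SD, n = 2), and the groups did not overlap. The log2 change was -0.70 (SE 0.16), with an unadjusted p of 0.00224 (limma adjusted p = 0.329, taken over the whole table), so the targeted gene did not pass the threshold of 0.05 against the control. Against the mean of shSMARCA4 and shMAFK the difference was -0.73 on the log2 scale, with a limma adjusted p of 0.0411. E2F6 protein was not analysed here.

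The promoter of E2F6 is shown because it carries the E2F core motif GCGGGAA, the element that E2F factors recognise. The sequence is from RefSeq on GRCh38.p14, chr2:11466112-11466411, minus strand, with the motif in capitals.
E2F6: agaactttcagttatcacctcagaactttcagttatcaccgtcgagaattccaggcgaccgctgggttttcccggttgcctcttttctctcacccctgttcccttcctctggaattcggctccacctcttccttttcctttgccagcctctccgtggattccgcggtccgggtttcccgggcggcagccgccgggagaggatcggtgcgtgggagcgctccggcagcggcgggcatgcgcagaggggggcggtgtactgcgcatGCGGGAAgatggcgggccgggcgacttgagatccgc

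The other members of PRC1.6 were near their control levels. Of 15 listed subunits 14 were in the table, and 0 passed the threshold. E2F6 was the only one with an unadjusted p under 0.05, beside 9.67% of all rows. The median log2 change of the list was -0.05, beside -0.0034 over all rows. MGA, the scaffold of the complex, stood at 1991 and 2430 in shE2F6 against 1708 and 2071 in shLUC, a log2 difference of 0.23 with overlapping libraries. L3MBTL2, a chromatin-binding MBT protein, stood at 644 and 786 against 638 and 676, and PCGF6, the Polycomb ring finger that defines the complex, at 472 and 386 against 418 and 398. These libraries overlapped as well. TFDP1, the dimer partner of E2F factors, stood at 1415 and 1158 against 1468 and 1644, a log2 difference of -0.28 (unadjusted p = 0.136) without overlap.

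**Figure D1:**
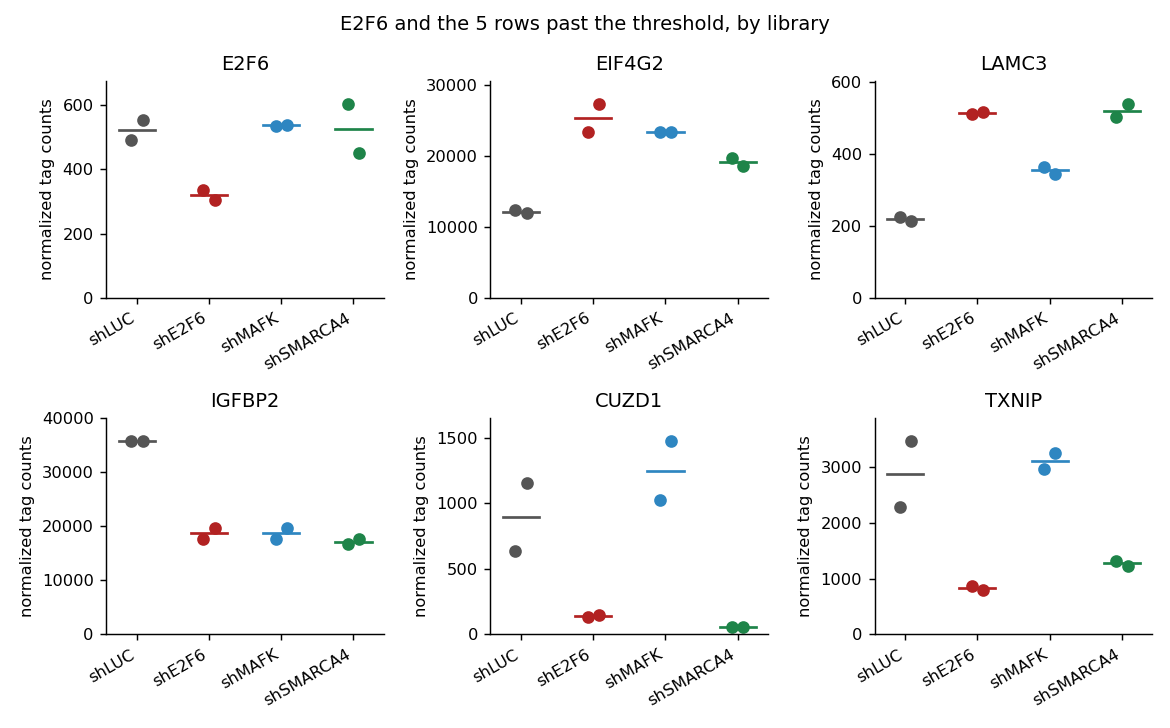
Normalized tag counts (y axis, from 0) of E2F6 and the 5 rows past the threshold in each of the 8 libraries fitted, by shRNA (x axis). Points are libraries and bars are means of 2 libraries; the E2F6 points of shE2F6, 336 and 304, are the lowest in their panel.

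Among all rows, 5 genes changed between shE2F6 and shLUC at a limma adjusted p under 0.05. EIF4G2 and LAMC3 rose (0.0135% of rows tested) and CUZD1, IGFBP2 and TXNIP fell (0.0203%), each at limma adjusted p = 0.0315. Before adjustment, 1430 rows (9.67%) lay under 0.05: 725 on the higher side (4.9%) and 705 on the lower side (4.77%). With 2 libraries a group, 6020 rows (40.7%) had no overlap between groups, so that lack of overlap marks little by itself. The median log2 change was -0.0095 for genes and 0.048 for TE rows.

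The number of called genes depended on single libraries and on the fit. It was 0 without shLUC replicate 2, it was 4 when the other control library was left out (2 of the 5 among them), 8 without shE2F6 replicate 1 (1 of the 5) and 1 without shE2F6 replicate 2 (none of the 5). Leaving out a library of the other knockdowns, which enter through the spread alone, gave between 1 and 5 genes, with none of the 5 without either shMAFK library (FEZF1 alone was called) and 1 and 3 of them without shSMARCA4 replicate 1 and 2. With all 10 libraries in the fit the count was 0.

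TXNIP (ENSG00000265972, chr1:145992435-145996600, minus strand) encodes an arrestin-family inhibitor of thioredoxin and of glucose uptake. Its level was 864 and 794 in shE2F6 against 2296 and 3474 in shLUC. Both knockdown libraries were lower than every other library fitted, since shMAFK stood at 2967 and 3262 and shSMARCA4 at 1323 and 1225. The fall was -1.77 on the log2 scale (SE 0.19), and TXNIP was the only row called with the same sign against the mean of shSMARCA4 and shMAFK (-1.26, limma adjusted p = 0.0151). Against shMAFK alone the difference was -1.91 (limma adjusted p = 0.00902) and against shSMARCA4 alone -0.62 (0.0936). ARRDC4, its close arrestin-domain paralog, was looked up after its values were seen. It stood at 330 and 304 against 626 and 1038, a log2 difference of -1.34 that missed the threshold against shLUC (limma adjusted p = 0.136) and passed it against the other knockdowns (-1.29, limma adjusted p = 0.0194).

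CUZD1 (ENSG00000138161, chr10:122832149-122850793, minus strand), a gene for a secretory-granule protein, had the largest fall of the called genes. Its level was 136 and 148 in shE2F6 against 640 and 1158 in shLUC, a log2 change of -2.59 (SE 0.28). The other knockdowns lay on either side of these values: shMAFK at 1022 and 1476 was as high as the control or higher, and shSMARCA4 at 56 and 58 was lower than shE2F6. Both single comparisons passed the threshold in opposite directions, with -3.10 against shMAFK (limma adjusted p = 0.00792) and 1.30 against shSMARCA4 (0.0267).

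IGFBP2 (ENSG00000115457, chr2:216632828-216664436, plus strand) encodes a secreted binding protein for insulin-like growth factors. Its level was 17675 and 19696 in shE2F6 against 35716 in both shLUC libraries, a log2 change of -0.94 (SE 0.10). The same 17675 and 19696 were listed in shMAFK, and shSMARCA4 stood at 16619 and 17675. The control libraries thus stood apart from all 6 knockdown libraries fitted, and against the other knockdowns the difference was 0.06 (limma adjusted p = 0.773). The unfitted shKDM1A libraries were higher than the control, at 61943 and 41812.

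EIF4G2 (ENSG00000110321, chr11:10797050-10809110, minus strand) encodes DAP5, a translation initiation factor of the eIF4G family. Its level was 23453 and 27326 in shE2F6 against 12340 and 11997 in shLUC, a log2 change of 1.06 (SE 0.10). It stood at 23453 in both shMAFK libraries and at 19692 and 18607 in shSMARCA4, so here too the control was apart from all other libraries fitted. Of the unfitted shKDM1A libraries, replicate 1 stood at 11997, the value of shLUC replicate 2, and replicate 2 at 18607. EIF4G2 and IGFBP2 lie where neighbouring values are far apart. EIF4G2 ranked 84 and 64 from the top in shE2F6 and 204 and 214 in shLUC, and IGFBP2 ranked 121 and 101 against 41 in both controls.

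LAMC3 (ENSG00000050555, chr9:131009082-131094473, plus strand) encodes the gamma-3 chain of laminin, a basement membrane protein. Its level was 509 and 516 in shE2F6 against 224 and 213 in shLUC, a log2 change of 1.23 (SE 0.12). It was also high in the other knockdowns, at 363 and 344 in shMAFK and 502 and 537 in shSMARCA4. The difference from their mean was 0.26 (limma adjusted p = 0.252). The unfitted shKDM1A libraries stood at 621 and 654. For EIF4G2, LAMC3 and IGFBP2 the shMAFK and shSMARCA4 libraries lay on the same side of the control as shE2F6, and a change shared by these hairpins cannot be told apart from a deviation of the 2 control libraries.

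**Figure D2:**
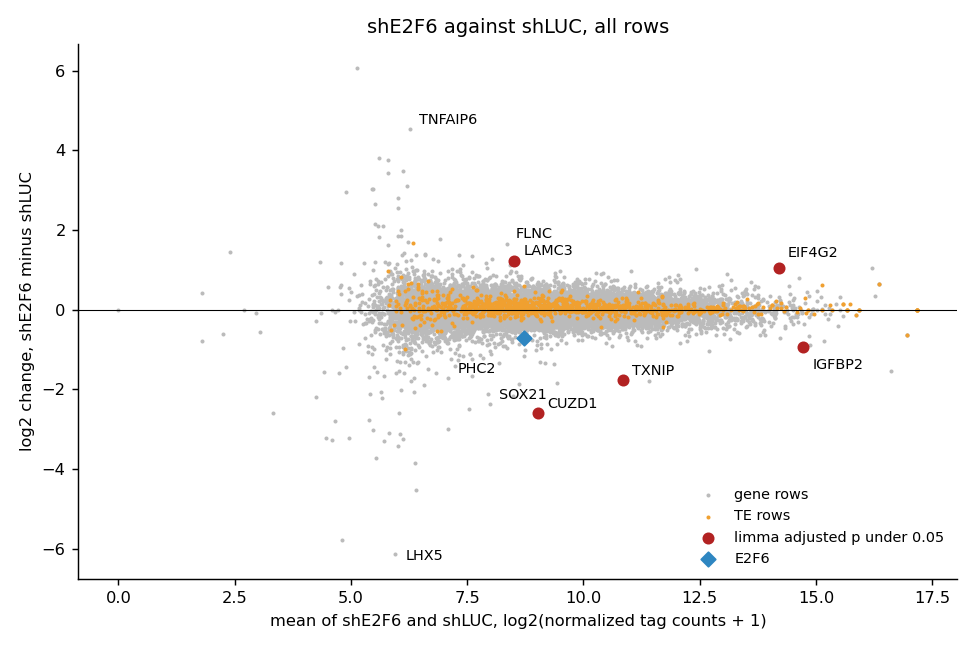
Log2 change, shE2F6 minus shLUC (y axis), against the mean level in these groups as log2(normalized tag counts + 1) (x axis), with 1 point per gene or TE row. The 5 called genes are red; E2F6 is the blue diamond at -0.70, and rows of low level scatter most.

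The 12 largest negative differences among genes whose higher group averaged 50 or more, with an unadjusted p under 0.05 and no overlap between groups were in LHX5, CDH9, PTGFR, GREB1L, CUZD1, FEZF1, SOX21, CYP26A1, FIGNL2, SIX3, GADD45G and IRX2, of which CUZD1 alone passed. SOX21, a SoxB repressor of neural progenitors, stood at 110 and 59 in shE2F6 against 454 and 392 in shLUC, a log2 difference of -2.37 (limma adjusted p = 0.078). It was also lower than in the other knockdowns, by -2.27 (limma adjusted p = 0.0093), while the unfitted shKDM1A libraries stood at 168 and 102. FEZF1, a forebrain zinc finger repressor, stood at 54 and 55 against 274 and 356, a difference of -2.50 (limma adjusted p = 0.258). Against the other knockdowns it was -2.35 (limma adjusted p = 0.0332), although shMAFK replicate 1, at 83, was near the shE2F6 values. The unfitted shKDM1A libraries were lower than shE2F6, at 45 and 47.

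FIGNL2, an AAA ATPase gene, stood at 114 and 73 against 382 and 418 (-2.12, limma adjusted p = 0.078) and was lower than in the other knockdowns as well (-1.34, limma adjusted p = 0.0311). shSMARCA4, at 134 and 120, lay close to shE2F6. SIX3, a forebrain and eye homeobox gene, stood at 27 and 26 against 62 and 211, so the control libraries differed widely between themselves. In shKDM1A it was also low, at 34 and 20. IRX2, an Iroquois homeobox gene, stood at 151 and 182 against 501 and 728 (-1.86, limma adjusted p = 0.0819), with shMAFK at 1166 and 1760 and shSMARCA4 at 46 and 62. CYP26A1, which degrades retinoic acid, stood at 113 and 140 against 417 and 764 (-2.16, limma adjusted p = 0.34).

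Several of these genes were near 0. LHX5, a LIM homeobox gene of the forebrain, was listed at 1 and 0 in shE2F6 against 51 and 191 in shLUC. It was also low in shSMARCA4, at 2 and 6, and in shKDM1A, at 2 in both libraries. CDH9, a cadherin, was listed at 0 and 38 against 116 and 178, and PTGFR, the prostaglandin F receptor, at 32 and 0 against 86 and 65. All 4 libraries of shMAFK and shSMARCA4 were higher than shE2F6 for CDH9 (110 to 202) and for PTGFR (62 to 124). In shKDM1A, CDH9 was listed at 0 and 108 and PTGFR at 170 and 68.

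Among the 12 largest positive differences by the same rule 0 passed the threshold, and 7 were long intergenic noncoding RNA rows, which were of low level. TNFAIP6, a hyaluronan-binding secreted protein, stood at 130 and 142 in shE2F6 and was listed at 0 and 34 in shLUC. FLNC, the muscle filamin that crosslinks actin, stood at 532 and 454 against 181 and 133 (1.66, limma adjusted p = 0.106). It was higher than in the other knockdowns too (1.14, limma adjusted p = 0.0423). SPIB, an ETS factor best known from lymphoid cells, stood at 157 and 123 against 51 and 54 (1.39, limma adjusted p = 0.34). Its difference from the other knockdowns was 2.18 (limma adjusted p = 0.0154), while the unfitted shKDM1A libraries stood at 82 and 214.

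RELB, an NF-kappaB subunit, differed in another way. It stood at 134 and 142 in shE2F6 against 53 and 52 in shLUC (1.38, limma adjusted p = 0.0819), with shMAFK at 132 and 136 and shSMARCA4 at 123 and 114. The control libraries were the lowest of all libraries fitted.

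**Figure D3:**
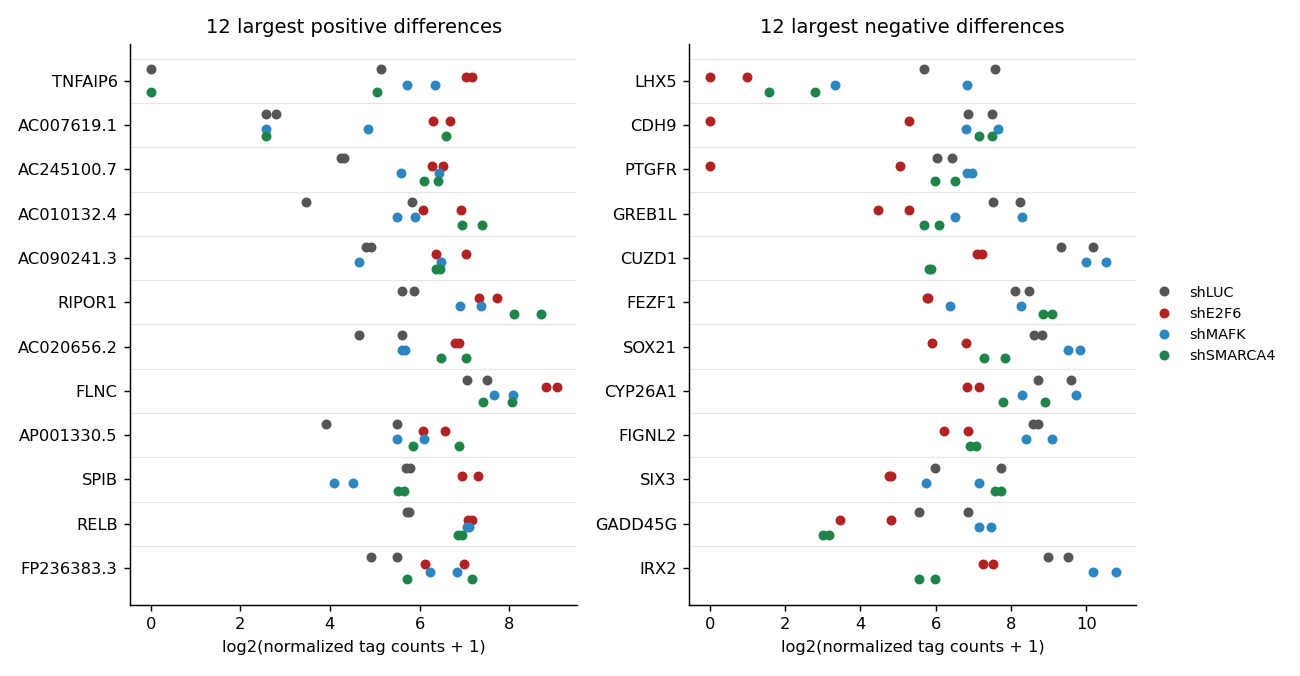
Levels as log2(normalized tag counts + 1) (x axis) of the 12 largest positive (left) and negative (right) differences, 1 gene per line and 1 point per library, coloured by shRNA. Zeros plot at 0, and shKDM1A is not shown. For SPIB and FLNC the shE2F6 points lie above all others, and for RELB the shLUC points lie below all others.

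Germline genes, the textbook targets of PRC1.6, were more often higher than lower, and 0 of them passed the threshold. Of 64 listed genes 28 were in the table, 19 of them higher and 9 lower, with a median log2 change of 0.18 beside -0.0034 over all rows. That median was 0.30 without shE2F6 replicate 1 and between 0.15 and 0.24 with any other of the 4 libraries left out. An unadjusted p under 0.05 was reached by 6, all higher, which is 6 of 28 beside the 4.9% of all rows that were higher at that p. The list was chosen with earlier results of these data known, so this share is a description and was not tested. No overlap was seen for 12 higher and 6 lower members, beside the 40.7% of all rows.

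The 6 genes were CTCFL, SYCP2, TEX15, C19orf57, TEX11 and ZCWPW1. SYCP2, an axial element protein of the synaptonemal complex, stood at 148 and 144 in shE2F6 against 101 and 75 in shLUC (0.74, limma adjusted p = 0.415). TEX15, a testis gene of piRNA-directed silencing, stood at 651 and 1024 against 467 and 551 (0.69, limma adjusted p = 0.432), and with shMAFK at 597 and 748 the ranges met. CTCFL, the testis paralog of CTCF, stood at 151 and 131 against 96 and 82 (0.66, limma adjusted p = 0.407), and shMAFK was higher still at 252 and 284. For CTCFL shSMARCA4 stood at 100 and 126, and the unfitted shKDM1A libraries were by far the highest, at 1140 and 995.

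TEX11, a meiotic recombination gene, stood at 121 and 112 in shE2F6 against 79 and 63 in shLUC. All 4 libraries of shMAFK and shSMARCA4 were lower, at 52 to 71, while the unfitted shKDM1A libraries stood at 114 and 82. C19orf57, a BRCA2-associated meiotic gene, stood at 144 and 103 against 72 and 58, with shMAFK at 91 and 146 and shSMARCA4 at 121 and 83. ZCWPW1, a reader of histone methylation at recombination sites, stood at 146 and 134 against 106 and 62. It stood at 112 and 113 in shMAFK, 124 and 78 in shSMARCA4 and 194 and 114 in the unfitted shKDM1A libraries. Other meiotic genes showed no such difference: SYCP3, an axial element protein, stood at 142 and 58 against 124 and 136, DAZL, a germ-cell RNA-binding protein, at 50 and 72 against 78 and 76, and DMC1, the meiotic recombinase, at 94 and 84 against 110 and 99. In shE2F6 and shLUC all of these levels lie far under the table's median of 594 except that of TEX15.

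The promoters of SYCP2 and SYCE2, both synaptonemal complex genes, are shown because they hold the E2F core motif. In the windows of RefSeq on GRCh38.p14, 250 bases before to 50 after the start, GCGGGAA on either strand was found in 4 of 24 germline promoters with an entry (SYCP2, SYCE2, MSH5 and REC8) and in 10.4% of the 10495 promoters matched to genes of the table. CACGTG, the E-box, was found in 5 of 24 and in 1053 of all 10495, and 107 of the 10495 held both motifs, which can share 1 base. SYCE2 stood at 172 and 152 against 110 and 136 (0.40, unadjusted p = 0.0776), MSH5 at 518 and 551 against 554 and 699, and REC8 at 356 and 534 against 444 and 413. SYCP2 is at chr20:59933588-59933887 and SYCE2 at chr19:12919244-12919543, both minus strand, with the motif or its reverse complement in capitals.
SYCP2: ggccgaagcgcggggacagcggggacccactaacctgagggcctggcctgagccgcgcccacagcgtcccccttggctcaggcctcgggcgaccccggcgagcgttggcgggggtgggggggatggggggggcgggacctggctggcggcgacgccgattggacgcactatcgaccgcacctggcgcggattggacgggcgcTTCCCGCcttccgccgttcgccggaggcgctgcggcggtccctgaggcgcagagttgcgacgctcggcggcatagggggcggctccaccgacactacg
SYCE2: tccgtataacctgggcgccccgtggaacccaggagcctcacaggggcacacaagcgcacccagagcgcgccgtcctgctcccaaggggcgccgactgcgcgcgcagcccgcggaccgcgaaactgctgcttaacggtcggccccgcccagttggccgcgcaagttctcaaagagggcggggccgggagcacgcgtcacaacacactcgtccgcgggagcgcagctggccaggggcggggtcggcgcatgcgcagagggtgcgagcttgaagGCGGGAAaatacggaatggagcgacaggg

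Over all matched genes, those with the E2F core were higher at an unadjusted p under 0.05 in 6.11% of 1096 cases and lower in 3.65%. The shares were 4.93% and 5.26% of the 9399 genes without it. The median log2 changes were -0.006 with and -0.0141 without the motif. For the E-box the shares were 6.08% higher and 4.84% lower with it, and 4.93% and 5.12% without it. These are descriptions of a window, not of binding.

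Cell cycle genes were close to the control. All 43 genes of the G1/S and DNA replication list were in the table, 25 higher and 18 lower, with a median of 0.04 (-0.05 without shE2F6 replicate 1 and 0.13 without shE2F6 replicate 2), and GCGGGAA was found in 18 of the 36 with a promoter entry. RRM2, a ribonucleotide reductase subunit, was the one with an unadjusted p under 0.05, beside 9.67% of all rows. It stood at 3110 in both shE2F6 libraries against 2442 and 1809 (0.57, limma adjusted p = 0.382). None of the 23 G2/M genes reached that p, with a median of 0.02. Of the other 10 E2F and retinoblastoma family members, E2F2, an activating E2F, stood at 390 and 353 against 222 and 290 (0.55, limma adjusted p = 0.474), and the median was 0.14. E2F1, the founding activator, stood at 960 and 951 against 868 and 808.

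Of the Polycomb and DNA methylation genes 0 passed the threshold. Of 23 PRC2 and canonical PRC1 genes in the table, 1 had an unadjusted p under 0.05, beside 9.67% of all rows. This was PHC2, a Polyhomeotic subunit of canonical PRC1. It stood at 63 and 62 in shE2F6 against 209 in both shLUC libraries (-1.73, limma adjusted p = 0.0811). shMAFK was also low, at 66 and 94, while shSMARCA4 stood at 150 and 188. EZH2, the PRC2 methyltransferase, stood at 1046 and 1134 against 985 and 836, and the list median was -0.04.

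The PHC2 promoter is shown because it holds an E-box and PHC2 had the lowest p of any list member. It is at chr1:33431046-33431345 on GRCh38.p14 (RefSeq), minus strand, with CACGTG in capitals.
PHC2: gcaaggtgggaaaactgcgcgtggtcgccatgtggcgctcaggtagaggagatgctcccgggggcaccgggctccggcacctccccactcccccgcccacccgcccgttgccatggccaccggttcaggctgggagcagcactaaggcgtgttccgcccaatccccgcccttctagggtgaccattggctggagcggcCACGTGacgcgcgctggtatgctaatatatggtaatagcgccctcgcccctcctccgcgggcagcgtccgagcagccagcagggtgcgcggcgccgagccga

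In the list of H3K9 and DNA methylation silencing genes, 19 of 21 were in the table and the median was 0.01. An unadjusted p under 0.05 was reached by 2 of the 19, TRIM28 and DNMT3B, beside 9.67% of all rows. TRIM28, the corepressor recruited by KRAB zinc finger proteins, stood at 23453 and 27326 against 19692 and 18607 (0.40, limma adjusted p = 0.377). DNMT3B, the de novo DNA methyltransferase of pluripotent cells, stood at 35710 and 30768 against 27326 and 25021 (0.34, limma adjusted p = 0.392). Both lie in the range of widely spaced values. DNMT1, the maintenance methyltransferase, stood at 4390 and 4808 against 3966 and 3821 (unadjusted p = 0.0579).

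Among the 18 pluripotency markers, 8 were higher and 10 lower, with a median of -0.15, which moved to 0 without shE2F6 replicate 2 and to -0.013 without shLUC replicate 2. At an unadjusted p under 0.05, 1 was higher and 2 were lower, beside 4.9% and 4.77% of all rows. The higher one was DNMT3B, described above (0.34). FOXD3, a forkhead factor of pluripotent cells, stood at 572 and 437 against 740 and 661 (-0.48, limma adjusted p = 0.488), and SOX2 at 5706 and 5367 against 6408 and 6928 (-0.27, limma adjusted p = 0.495). GDF3 was higher without passing, at 430 and 434 against 340 and 205 (0.71, limma adjusted p = 0.606). NANOG stood at 2628 and 2148 against 2512 and 2639, with overlap. POU5F1 was lower in shE2F6 replicate 2, at 16615, than in replicate 1, at 30768, and its log2 difference of -0.66 had an unadjusted p of 0.126.

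Of the 4 ectoderm markers in the table SIX3, ZIC1 and MAP2 were lower at an unadjusted p under 0.05, beside 4.77% of all rows, and TUBB3 was higher. TUBB3, a neuronal tubulin with by far the highest level of the 4, stood at 5708 and 5925 in shE2F6 against 5536 and 3264 in shLUC (0.45, unadjusted p = 0.088), without overlap. It was higher than in the other knockdowns (1.47, limma adjusted p = 0.0163). ZIC1, a neural zinc finger gene, stood at 36 and 59 in shE2F6 against 95 and 149 in shLUC, and MAP2, a neuronal microtubule protein, at 154 and 178 against 311 and 369. ZIC1 was also below the control in shMAFK, at 64 and 75, and in the unfitted shKDM1A libraries, at 79 and 48. In shSMARCA4 ZIC1 was higher than the control, at 462 and 1004. The summed level of the 4 was 5925 and 6188 in shE2F6 and 6004 and 3993 in shLUC. FOXA2, an endoderm factor, was listed at 4 and 0 against 4 and 2, and EOMES, a mesendoderm factor, at 24 and 0 against 14 and 34. KRT7, a trophoblast keratin, stood at 168 and 125 against 218 and 296 (-0.81, limma adjusted p = 0.434). Whether fewer cells of a type or less RNA per cell lies behind such levels cannot be told apart in bulk RNA, and the part of differentiating cells in the differences above was not tested.

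**Figure D4:**
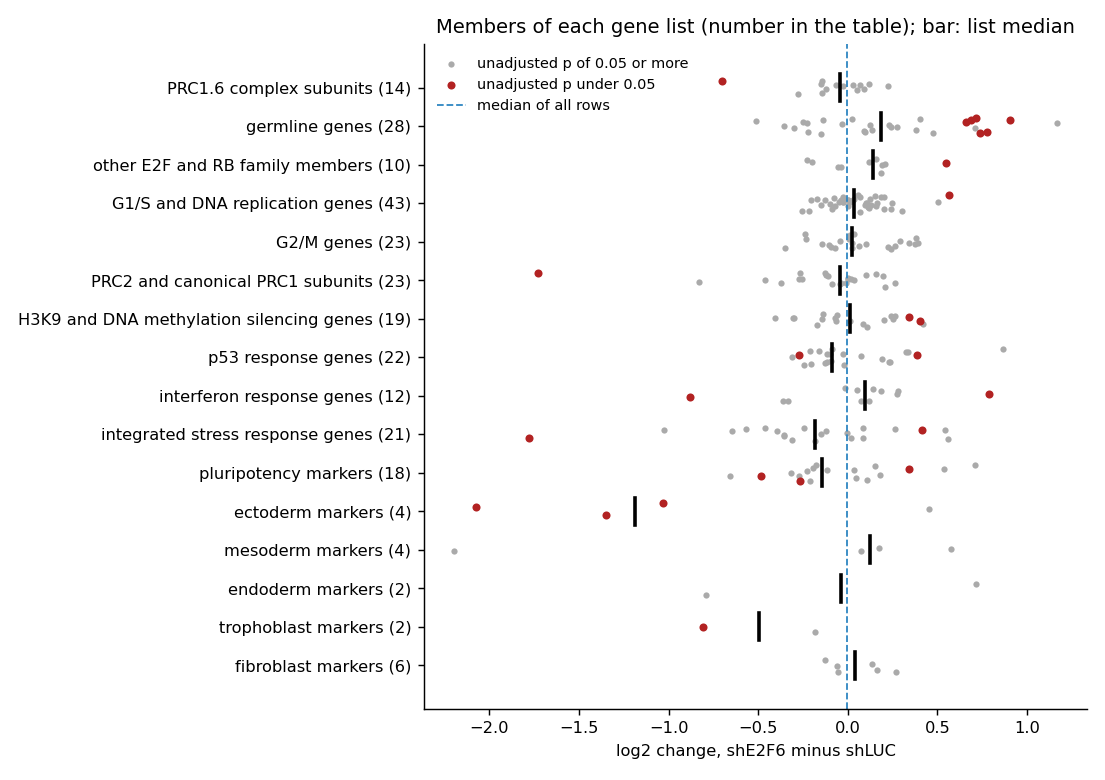
Log2 change, shE2F6 minus shLUC (x axis), of each member of 16 gene lists (y axis, with the number in the table). Red points have an unadjusted p under 0.05, black bars are list medians and the dashed line is the median of all rows; the germline list has 6 red points, all to the right, and a median of 0.18.

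In the stress response lists 0 genes passed the threshold. An unadjusted p under 0.05 was reached by 2 of 22 p53 genes, 2 of 21 integrated stress genes and 2 of 12 interferon genes in the table, beside 9.67% of all rows, and in each list 1 gene was higher and 1 lower. In the p53 list of 22 genes ZMAT3, an RNA-binding p53 target, stood at 684 and 646 against 472 and 550, and CCNG1, cyclin G1, at 10071 and 9502 against 11997 and 11635. In the interferon list of 12 genes in the table, ISG15, a ubiquitin-like protein, stood at 240 and 404 against 191 and 170, and BST2, the virion tether, at 370 and 346 against 614 and 710. In the integrated stress list DDIT4, an mTORC1 inhibitor, stood at 990 and 1220 against 2170 and 6580, and HSPA5, the main chaperone of the endoplasmic reticulum, at 14834 and 11635 against 10950 and 8852. That list's median of -0.18 moved to -0.56 when shLUC replicate 1 was left out and to 0.22 when replicate 2 was. DDIT4 passed the threshold without shLUC replicate 1 (limma adjusted p = 0.0263).

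No TE subfamily passed the threshold with limma. An unadjusted p under 0.05 was reached by 19 of the 973 TE rows (1.95%), 18 of them higher and 1 lower, a smaller share than the 9.67% of all rows. TE rows made up 14.6% and 15.0% of the total in shE2F6 and 14.5% in both shLUC libraries. The median log2 change of TE rows was 0.048, and the median size of change was 0.09 beside 0.16 for genes.

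The 6 TE rows with the smallest p were L1P3b, X7D_LINE, LTR10B1, MER45C, X5B_LINE and MER50C, all higher. L1P3b, a primate LINE-1 subfamily, stood at 424 and 418 in shE2F6 against 289 and 322 in shLUC (0.46, limma adjusted p = 0.382), and all 4 libraries of the other knockdowns were lower, at 262 to 333. LTR10B1, a long terminal repeat of an endogenous retrovirus, stood at 604 and 536 against 444 and 394 (0.44, limma adjusted p = 0.419), within reach of shMAFK at 522 and 621. MER45C, a DNA transposon, stood at 341 in both libraries against 247 and 264, and shMAFK and shSMARCA4 were as high, at 311 to 368.

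By family, ERV1 elements, the retroviral class that includes HERVH, had 191 of 274 subfamilies higher and 82 lower, with a median of 0.07. The medians were 0.08 for 115 ERVL, 0.03 for 130 L1 and -0.00026 for 48 Alu subfamilies. LTR7Y, a long terminal repeat variant of the HERVH family, stood at 600 and 818 against 520 and 500 (0.46, limma adjusted p = 0.509). HERVH-int, the body of the same provirus, was listed at 148866, the highest value of the table, in all 4 libraries, so that no change could be read. LTR7 stood at 61939 and 148866 against 61939 in both controls, so that its difference came from 1 library.

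**Figure D5:**
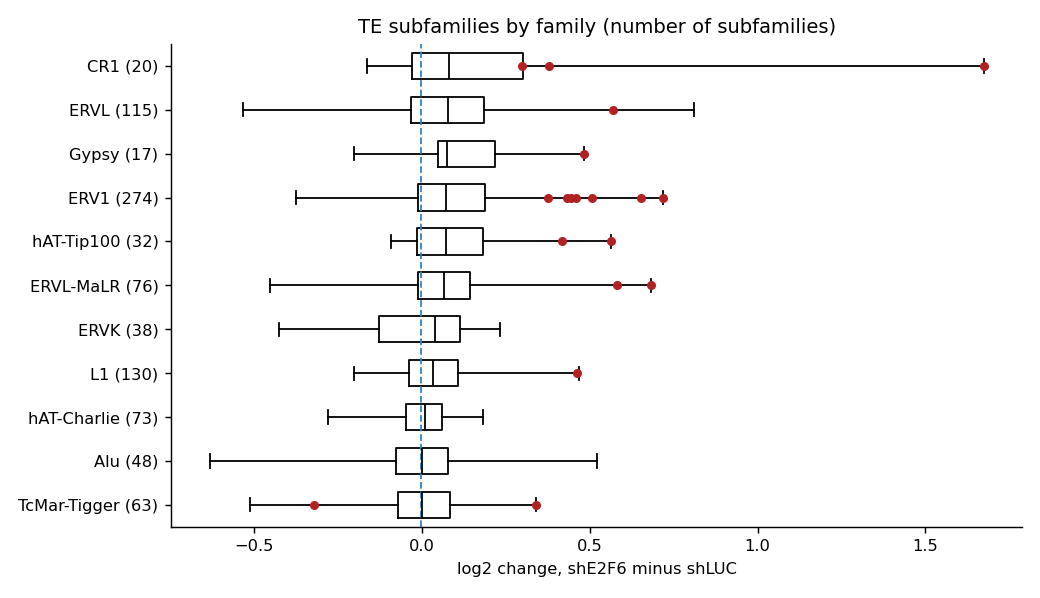
Log2 change, shE2F6 minus shLUC (x axis), of TE subfamilies by family (y axis, with the number of subfamilies). Boxes span the quartiles, whiskers the whole range, red points have an unadjusted p under 0.05 and the dashed line is the median of all rows; the median of ERV1 is 0.07.

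Against the mean of shSMARCA4 and shMAFK, 331 rows differed at a limma adjusted p under 0.05 (2.24%), 199 higher and 132 lower in shE2F6. This comparison shares the shE2F6 libraries with the one above, so the 2 are not independent. The count was 1130 against shSMARCA4 alone and 340 against shMAFK alone, and 12 without shE2F6 replicate 2. The 8 largest in each direction included actin genes of muscle. ACTG2, smooth muscle gamma-actin, stood at 217 and 340 in shE2F6, 118 and 94 in shLUC, 100 and 88 in shMAFK and 25 and 12 in shSMARCA4. ACTA1, skeletal muscle alpha-actin, stood at 455 and 536, 286 and 226, 297 and 196, and 42 and 26 in the same order. For both, shE2F6 was the highest group, with differences of 2.71 (limma adjusted p = 0.0102) and 2.45 (0.00732) from the other knockdowns. shSMARCA4 was the farthest away, at 3.89 and 3.86 on the log2 scale, and against shMAFK alone neither passed the threshold (ACTG2 1.52, limma adjusted p = 0.074, and ACTA1 1.03, limma adjusted p = 0.0934).

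In other rows too shSMARCA4 stood farthest from the rest, as in ARHGAP23 and TNRC18, while shE2F6 was the lowest fitted group in DLL1 and PLEKHB1. ARHGAP23 stood at 2017 and 1945 in shE2F6 and at 59 and 110 in shSMARCA4, with shLUC at 1242 and 1631. TNRC18, a chromatin protein gene, stood at 83 and 58 in shE2F6, overlapping shLUC at 72 and 101, and at 948 and 942 in shSMARCA4. DLL1, a Notch ligand, was lowest in shE2F6, at 20 and 26, with shLUC at 68 and 70, shMAFK at 104 and 91 and shSMARCA4 at 136 and 191 (-2.41 from the other knockdowns, limma adjusted p = 0.00796). In the unfitted shKDM1A libraries DLL1 was also below the control, at 47 and 34. PLEKHB1, a pleckstrin-homology protein gene, stood at 68 and 44 in shE2F6 against 180 and 156 in shLUC (-2.10 from the other knockdowns, limma adjusted p = 0.00584). The unfitted shKDM1A libraries overlapped shE2F6, at 62 and 100.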

How the data were processed

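RNA of H1 cells was sequenced after NEB Next Ultra library preparation, with a minimum RNA integrity number of 8 per the labels. The deposited values are scores: normalized tag counts that the authors rounded to whole numbers, as read from the header's abbreviation and the values (equal medians, totals from 22836548 to 22855295), not raw counts, so no count model was used and depth is unknown. The submitters' processing notes name hg38, STAR and STARsolo. Their roles and the normalization are not given in the sources used here. Reads of overlapping genes, paralogs and TE copies may be shared.

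Groups and replicate numbers came from the titles. The design text calls the samples biological duplicates. Log2(value + 1) was fitted with limma 3.58.1 in R 4.3.3 (mean-variance trend, two-sided) on 8 libraries of 4 groups, 4 residual degrees of freedom, for rows with a mean of at least 10, which removed none. P-values were adjusted by Benjamini-Hochberg over 14785 rows. Beside the ratio of group means, fold changes of low rows can be understated by the added 1 or overstated where a library is at 0. TNFAIP6, listed at 0 and 34 in shLUC, had an shE2F6 mean at 800% of the control mean and a log2 change of 4.53. The fit was also run on simulated data with independent normal noise. Those data lack the shared and widely spaced values of the real libraries, so they cannot speak for calls among such values. Positions are from GENCODE 29, promoters from RefSeq GRCh38.p14, and plots from matplotlib 3.10.9.

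Named genes were E2F6 and PRC1.6 members, all called rows, the 12 largest differences in each direction (higher group averaging 50 or more, unadjusted p under 0.05, no overlap), list members with an unadjusted p under 0.05, the 6 TE rows of smallest p and the 8 largest rows each way against the other knockdowns. Further genes were chosen after their values were seen: list members above that p, and ARRDC4. Members and lists were chosen with earlier results of these data known. Alternatives covered the pseudocount, filter, normalization, variance model, libraries fitted, replicate block and each library left out.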

Additional observations from a re-analysis of the deposited data

How the results depend on the processing

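The 5 genes called against shLUC became 0 without the mean-variance trend, 0 with all 10 libraries and 1 (RPL13A) with the shE2F6 and shLUC libraries alone. The 5 were all called under the pseudocounts of 10 and 50, both filters, quantile normalization, group weights (6 genes) and the replicate block. Of the filters, leaving out the minimum mean repeated the main fit, since that minimum had removed no row. Quantile normalization could change little, since 80.3% of ranks already held an identical value in all 10 libraries. Median centring called 4, all among the 5, and the robust prior called 6, which included 4 of the 5 and not IGFBP2. Leaving out 1 shE2F6 or shLUC library gave 0 to 8, with 669 rows at an unadjusted p under 0.05 where limma called 0. The 331 rows called against the other knockdowns became 193 with group weights, 78 with all 10 libraries, 551 with the replicate block and 1130 with shSMARCA4 alone as the reference. Leaving out 1 library gave 12 to 216. The E2F6 change stayed below 0 and short of the threshold in every fit run, from -0.79 to -0.62 with 1 library left out, and its limma adjusted p ranged from 0.205 (replicate block) to 0.946 (without shLUC replicate 2). With the replicate block 7 genes were called against shLUC, the 5 among them. The numbers did not count as pairing the shLUC and shE2F6 libraries, since the differences between their replicates correlated across rows at 0.04. Over all pairs of groups this ran from -0.05 to 0.34. The highest was that of shE2F6 and shSMARCA4, both in the second comparison, where the replicate block gave the 551 rows above. With 2 libraries a group and unknown depth, small changes of low rows could not be resolved.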
